A study of Mus musculus with 6 samples.

Results

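Collagen chain genes, the genes that encode the α chains of the collagen family, were examined in D4M-3A cells, a mouse melanoma line, with and without a knockout of Nfkbiz. They were taken by symbol, as every gene whose name consists of Col, a type number, the letter a and a chain number, which gave 44 of the 43043 genes listed. Of these, 28 had at least 10 reads in 3 or more samples and were tested, and the other 16 were not. By type, 11 of the 44 are fibrillar, 8 belong to basement membranes and 25 are of other types.

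RNA was sequenced in 3 control samples (Ctrl), transduced by lentivirus with an empty CRISPR-Cas9 construct, and in 3 Nfkbiz knockout samples (Nfkbiz KO), which carried a CRISPR-Cas9 construct against Nfkbiz. Both groups were selected with puromycin and grown in RPMI medium with 10% fetal calf serum, and whether the knockout cells are a pool or a clone is not given in the sources used here. The single comparison of the design is Nfkbiz KO against Ctrl, which asks what the loss of IκBζ, the nuclear NF-κB cofactor encoded by Nfkbiz, changes in the transcriptome. The samples of a group are described as independent experiments on the same cells, so the p-values measure the spread between these samples.

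Collagens are built from α chains that wind around each other, as copies of the same chain or as a mix of partner chains. Fibrillar collagens form the load-bearing fibrils of skin, bone and vessel wall, type IV collagens form the network of basement membranes, and smaller families anchor, coat or space these structures. Chains are hydroxylated and glycosylated in the endoplasmic reticulum, trimmed after secretion and cross-linked by lysyl oxidases outside the cell. In skin most collagen is made by fibroblasts, and tumor cells can add to it.

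Samples held between 32219900 and 44927203 gene reads, of which 96.5% to 96.9% mapped uniquely. The targeted gene Nfkbiz (chromosome 16 of GRCm39, 55631738 to 55659262, minus strand) had 69.1, 75.2 and 63.4 TPM (transcript level scaled to length and depth) in Ctrl replicates 1, 2 and 3 and 34.8, 34.7 and 35.1 TPM in the Nfkbiz KO replicates, without overlap (log2 fold change -0.98, with a standard error, SE, of 0.0558 and an adjusted p of 5.6e-08 by edgeR's quasi-likelihood test). Of 7 melanocyte markers only Mitf and Pmel were tested, neither passed the test, and Sox10 and Tyr had 0 reads in every sample. Summed over the 7, their level was 1.11 to 1.74 TPM in Ctrl and 1.27 to 1.68 TPM in Nfkbiz KO, near 0 in both groups. The 8 fibroblast markers summed to 90.7 to 108 TPM in Ctrl and 100 to 105 TPM in Nfkbiz KO, with overlap, and of the 5 tested Postn was higher (log2 fold change 0.73) and Dcn lower (-0.79) in Nfkbiz KO. For the endothelial markers (4 listed) the sum was 0.55 to 0.827 TPM (Ctrl) against 1.32 to 1.85 TPM (Nfkbiz KO). Most of each sum was Cdh5, which rose (mean TPM of 0.548 against 1.54, log2 fold change 1.34). Pecam1, the only other one tested, did not pass (log2 fold change -0.17, adjusted p = 0.87). Tek and Kdr had too few reads to be tested, so a rise of the endothelial markers as a set is not shown. The immune markers (4 listed) summed to 1.78 to 2.46 and 1.77 to 4.01 TPM, and those of keratinocytes (3 listed) stayed at or below 0.154 TPM in every sample. The part of these marker levels in the collagen values was not tested, and in such bulk samples fewer expressing cells and less RNA per cell cannot be told apart.

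The 250 bases before the annotated start are shown for the chain genes with the largest fold changes in each direction that have an entry in RefSeq on GRCm38.p6, since they lie where transcription of these genes begins. Col7a1 (chr9:108953336-108953585, plus strand) and Col11a1 (chr3:114030290-114030539, plus strand) were lower in Nfkbiz KO, and Col23a1 (chr11:51289670-51289919, plus strand) and Col6a4 (chr9:106096692-106096941, minus strand) were higher. Capitals mark matches on either strand to the NF-κB consensus, to GGGCGG (the GC box), to CCAAT and to TATAAA.
Col7a1: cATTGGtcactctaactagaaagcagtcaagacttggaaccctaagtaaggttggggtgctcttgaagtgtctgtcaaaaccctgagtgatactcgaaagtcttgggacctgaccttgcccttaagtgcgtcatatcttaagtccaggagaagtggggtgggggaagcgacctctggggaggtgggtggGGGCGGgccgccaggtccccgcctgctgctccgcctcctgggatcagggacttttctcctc
Col11a1: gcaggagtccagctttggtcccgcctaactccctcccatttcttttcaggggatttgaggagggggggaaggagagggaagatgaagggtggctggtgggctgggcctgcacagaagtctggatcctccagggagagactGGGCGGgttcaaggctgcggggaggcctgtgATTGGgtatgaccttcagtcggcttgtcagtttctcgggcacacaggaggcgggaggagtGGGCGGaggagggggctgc
Col23a1: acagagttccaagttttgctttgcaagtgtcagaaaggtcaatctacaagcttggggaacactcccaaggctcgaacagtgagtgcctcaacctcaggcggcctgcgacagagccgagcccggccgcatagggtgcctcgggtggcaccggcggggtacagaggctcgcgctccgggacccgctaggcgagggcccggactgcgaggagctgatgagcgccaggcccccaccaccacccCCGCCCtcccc
Col6a4: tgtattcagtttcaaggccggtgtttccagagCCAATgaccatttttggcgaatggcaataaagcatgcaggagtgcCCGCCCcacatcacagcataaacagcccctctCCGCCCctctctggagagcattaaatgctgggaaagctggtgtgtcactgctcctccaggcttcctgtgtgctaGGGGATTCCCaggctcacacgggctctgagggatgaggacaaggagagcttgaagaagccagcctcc

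Col6a4 alone among these 4 held a match to the NF-κB consensus, 67 bases before its start. In windows from 250 bases before to 50 after the start, which 23 of the 28 tested chain genes have (25 windows, since Col18a1 and Col6a2 have 2 each), 5 windows held an NF-κB match, those of Col27a1, Col4a2 and Col6a4 and both of Col6a2. Over the 13733 windows of all tested genes the share was 10.4%. GGGCGG stood in 17 of the 25 windows (60.3% of all), CCAAT in 11 (38.2% of all) and TATAAA in 3 (7.62% of all). Of the 4 genes with an NF-κB match, Col27a1 and Col6a4 rose, Col4a2 fell and Col6a2 did not pass the test. A match describes letters in the window and is not a measured binding site.

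A gene was called where its adjusted p did not exceed 0.05. Across the family this held for 18 of the 28 tested chain genes, 12 lower and 6 higher in Nfkbiz KO. Over all 14533 genes tested, 36.3% were called (18.2% lower and 18.0% higher). At least 98.8% of the reads of each tested chain gene were unique. Among genes with a mean of at least 10 TPM the share was 42.5%, and 13 of the 16 chain genes at that level were called. With limma on log2(TPM + 1) in place of the count test, 7 chain genes were higher and 8 lower, and 29.7% of all genes were called, 9.1% lower. The median log2 fold change of the 28 was -0.06, against -0.02 over all genes tested. Of the called chain genes 5 also changed by more than 2-fold, Col7a1, Col11a1 and Col12a1 lower and Col23a1 and Col6a4 higher (5.88% of all genes). With a difference of group means above 4 TPM asked as well, Col12a1 was left (1.78% of all genes). The depth-scaled read counts (CPM) of the groups did not overlap in 21 of the 28, for which the figure over all genes was 48.2%. The Ctrl samples differed more among themselves than the Nfkbiz KO samples did, as the counts of pairs of Ctrl samples gave a chi-square of 27.8 to 70.9 for each degree of freedom, highest for replicates 1 and 3, and those of Nfkbiz KO pairs 3.49 to 6.2. In 15 of the 18 called genes Ctrl replicate 3 had the lowest TPM of the Ctrl samples. With any Ctrl sample left out, all 18 were still called, 12 lower and 6 higher.

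**Figure D1:**
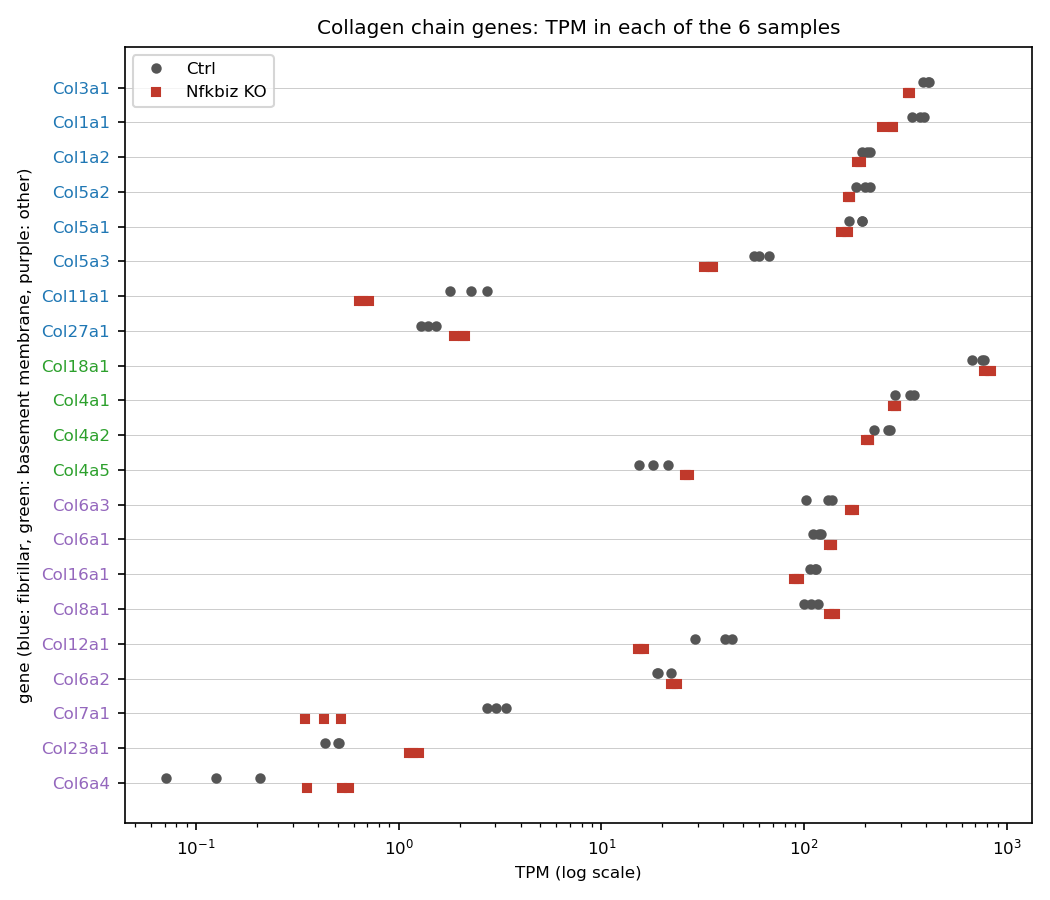
TPM of collagen chain genes in each sample, on a log axis, for every gene that was called or had a mean of at least 10 TPM in either group. Grey circles are the 3 Ctrl and red squares the 3 Nfkbiz KO samples. Most fibrillar genes sit lower in Nfkbiz KO, and Col7a1, with 2.72 to 3.37 TPM in Ctrl and 0.346 to 0.519 TPM in Nfkbiz KO, is the most widely separated.

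The level of collagen messenger RNA was led by few genes. In Ctrl, Col18a1 had the highest mean TPM, followed by Col3a1, Col1a1, Col4a1, Col4a2, Col1a2, Col5a2, Col5a1, Col6a3, Col6a1, Col16a1, Col8a1, Col5a3, Col12a1, Col6a2 and Col4a5. In Nfkbiz KO the order began with Col18a1 and Col3a1 too, but Col4a1 (282 ± 5.22 TPM) stood above Col1a1 (263 ± 17.4) and Col6a3 (172 ± 3.99) above Col5a2 (168 ± 2.2) and Col5a1 (160 ± 7.46). Several neighbours lay within each other's spread in Ctrl, such as Col1a2 (203 ± 9.06 TPM, SD, n = 3), Col5a2 (197 ± 15.5) and Col5a1 (184 ± 15.5). The 16 untested chain genes had at most 12 reads in any sample and at most 0.25 TPM, and Col13a1 and Col19a1 had 0 reads in all 6. With 3 reads as the limit of detection, a sample of this depth could show 0.0668 to 0.0931 CPM.

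Fibrillar chains were mostly lower in Nfkbiz KO. Of the 10 fibrillar genes tested, 7 fell and 1 rose, and the median log2 fold change of the 10 was -0.36 (over all genes tested 18.2% fell and 18.0% rose). With limma on log2(TPM + 1), 5 were lower and 1 higher, as Col1a2 and Col5a1 did not pass. Summed TPM over the fibrillar genes was 1437, 1489 and 1326 in Ctrl replicates 1 to 3 and 1159, 1164 and 1104 in the Nfkbiz KO replicates. All 3 Nfkbiz KO sums lay below the lowest Ctrl sum.

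Type I collagen, the main fibril former of skin and bone, is assembled from the chains of Col1a1 and Col1a2. Col1a1 (chromosome 11 of GRCm39, 94827050 to 94843868, plus strand) had 374, 389 and 339 TPM in Ctrl and 272, 274 and 243 TPM in Nfkbiz KO. Every Nfkbiz KO sample was below every Ctrl sample, and the fitted log2 difference was -0.58 (SE 0.0606, adjusted p = 1.1e-05). Its partner Col1a2 (chromosome 6, 4504814 to 4541555, plus strand) had 203, 211 and 193 TPM in Ctrl and 190, 187 and 183 TPM in Nfkbiz KO. These groups lay close together without overlap, and the fitted log2 difference was -0.21 (SE 0.0524, adjusted p = 0.0074). Without Nfkbiz KO replicate 3 the adjusted p of Col1a2 was 0.052, and with limma on log2(TPM + 1) it was 0.078. An antisense gene shares 10.3% of the exon bases of Col1a2, and reads of the pair cannot be told apart, since strand was not used in the counting.

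The ratio of Col1a1 to Col1a2 TPM moved with this. It was 1.84, 1.84 and 1.76 in Ctrl and 1.43, 1.46 and 1.33 in Nfkbiz KO. The groups did not overlap, and the mean log2 ratio went from 0.86 ± 0.0387 to 0.49 ± 0.0741 (SD, n = 3), a difference of -0.37 (p = 0.1 by an exact two-sided permutation test, which cannot go lower with 3 samples against 3).

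Col3a1 encodes the only chain of type III collagen, which forms fine fibrils beside type I. It had 408, 413 and 384 TPM in Ctrl and 327, 334 and 324 TPM in Nfkbiz KO, a fall without overlap (log2 fold change -0.39, SE 0.0546, adjusted p = 0.00014). Col3a1 and Col5a2 are neighbours on chromosome 1, tail to tail and 16713 bases apart in GRCm39, and both fell.

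Type V collagen sits inside type I fibrils and limits their width. Its major chain Col5a1 had 193, 193 and 166 TPM in Ctrl and 164, 165 and 151 TPM in Nfkbiz KO (log2 fold change -0.31, SE 0.0596, adjusted p = 0.0016). Here the lowest Ctrl and the highest Nfkbiz KO sample were close, though they did not overlap, and with limma on log2(TPM + 1) the adjusted p of Col5a1 was 0.092. Col5a2 had 199, 211 and 180 TPM in Ctrl and 169, 169 and 165 TPM in Nfkbiz KO, a fall of similar size (log2 fold change -0.32, SE 0.0537, adjusted p = 0.0005).

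The third type V chain, Col5a3 (chromosome 9, 20681337 to 20726418, minus strand), fell further. It had 56.4, 67.2 and 59.9 TPM in Ctrl and 34.7, 32.1 and 35.4 TPM in Nfkbiz KO, groups that lay far apart. The mean went from 61.2 ± 5.51 to 34.1 ± 1.75 TPM (SD, n = 3), or by -0.94 on the log2 scale of the fit (SE 0.0645, adjusted p = 2.7e-07). The ratio of Col5a1 to Col5a2 was 0.97, 0.915 and 0.922 in Ctrl and 0.967, 0.975 and 0.916 in Nfkbiz KO, with overlap (p = 0.7 by the same exact test).

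Col11a1 (chromosome 3, 113824134 to 114014367, plus strand) encodes a chain of type XI collagen, the close relative of type V that is best known from cartilage. It was expressed at a low level, with 305, 389 and 323 reads in Ctrl and 76, 105 and 108 reads in Nfkbiz KO. In TPM it had 2.27, 2.73 and 1.78 against 0.664, 0.713 and 0.64, the largest fall among the fibrillar genes. It was 3.61-fold lower in Nfkbiz KO (log2 fold change -1.85, SE 0.14, adjusted p = 6.2e-07), and between -1.95 and -1.73 on the log2 scale with each sample left out in turn.

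Col27a1, a fibrillar gene of cartilage matrix, was the only one of the group that rose. It had 1.39, 1.29 and 1.53 TPM in Ctrl and 2.08, 2.12 and 1.88 TPM in Nfkbiz KO, without overlap (log2 fold change 0.40, SE 0.0992, adjusted p = 0.0072). Col11a2 and Col24a1 had at most 14 reads in any sample, and no difference was detectable at this depth (adjusted p = 0.13 and 0.52). Col2a1, the main collagen gene of cartilage, was not tested.

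**Figure D2:**
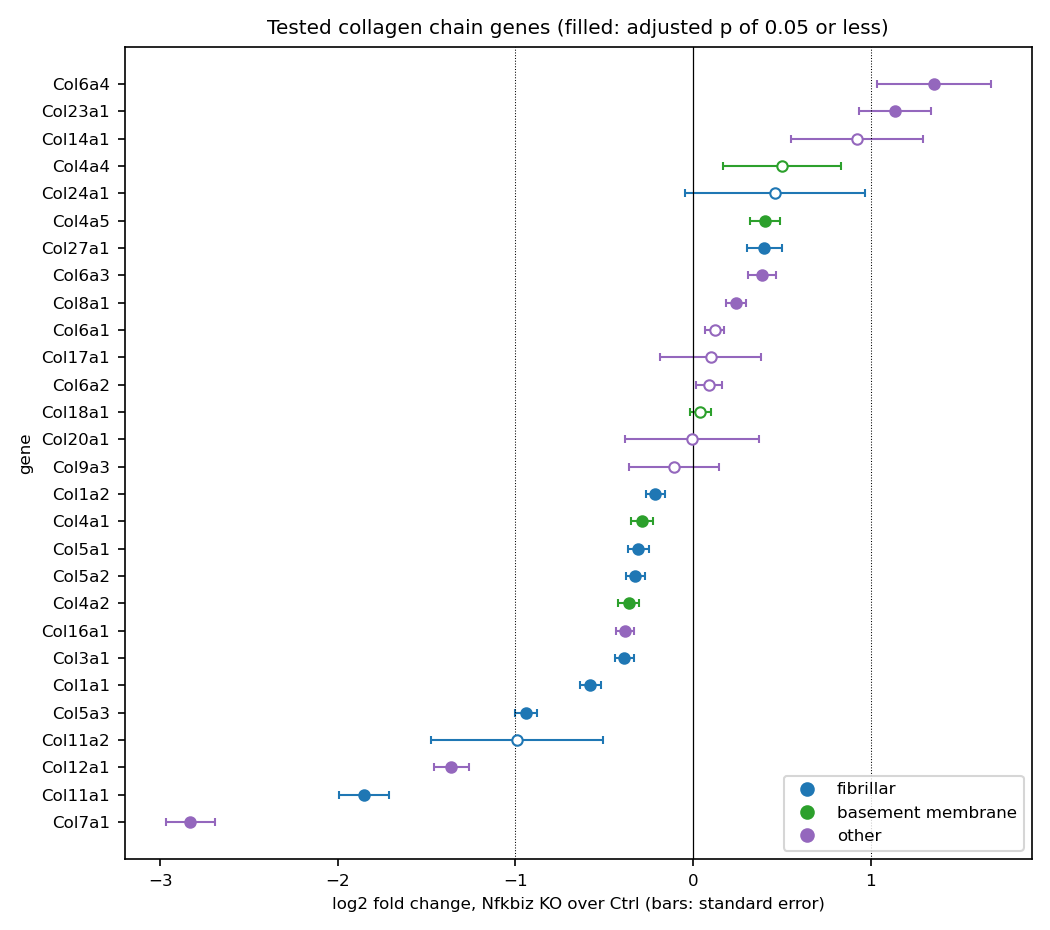
Log2 fold change (Nfkbiz KO over Ctrl) of the 28 tested collagen chain genes, ordered by size, with standard errors as bars and colours for the types. Filled points were called (adjusted p up to 0.05), and dotted lines mark a fold change of 2. Filled blue (fibrillar) points lie to the left of 0 except Col27a1, and Col7a1 stands at -2.83.

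Basement membrane chains did not share a direction. Of the 5 genes tested, 2 fell and 1 rose, and the median log2 fold change was 0.04 (over all genes tested 18.2% fell and 18.0% rose). Neither fall passed with limma on TPM, which left 0 lower and 1 higher. Their summed TPM was 1368, 1404 and 1191 in Ctrl and 1341, 1354 and 1277 in Nfkbiz KO, so the groups overlapped.

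Col4a1 and Col4a2 encode the chains of the common type IV network and lie head to head on chromosome 8 of GRCm39. Their starts are 317 bases apart in the GENCODE annotation, and the RefSeq starts used for the upstream windows lie closer together. Col4a1 had 334, 349 and 281 TPM in Ctrl and 284, 285 and 276 TPM in Nfkbiz KO. Ctrl replicate 3 fell inside the Nfkbiz KO range on this scale, while the other two Ctrl samples were higher. In CPM the groups did not overlap, and the fitted log2 difference was -0.29 (SE 0.0627, adjusted p = 0.0036). Col4a2 had 259, 265 and 220 TPM in Ctrl and 209, 210 and 201 TPM in Nfkbiz KO, without overlap (log2 fold change -0.36, SE 0.0588, adjusted p = 0.00043). With limma on log2(TPM + 1) the adjusted p was 0.16 for Col4a1 and 0.052 for Col4a2. The ratio of Col4a1 to Col4a2 was 1.29, 1.32 and 1.27 in Ctrl and 1.36, 1.36 and 1.37 in Nfkbiz KO. It was higher by 0.08 on the log2 scale in Nfkbiz KO, and the groups were separate (p = 0.1 by the same exact test). The 2 genes share 311 exon bases on opposite strands, 4.94% and 4.93% of their exon bases with other overlaps included, where reads cannot be told apart.

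Col4a5, a type IV chain of kidney and other specialised basement membranes, went the other way. It had 18, 21.3 and 15.4 TPM in Ctrl and 25.9, 26.9 and 26.3 TPM in Nfkbiz KO. The groups did not overlap (log2 fold change 0.41, SE 0.0823, adjusted p = 0.0021), and with each sample left out the value was between 0.31 and 0.51. Its partner and neighbour on the X chromosome, Col4a6, was not tested, nor were Col4a3 and Col15a1.

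Col18a1, whose C-terminal fragment is endostatin, was the most abundant chain gene. It had 757, 769 and 674 TPM in Ctrl and 822, 832 and 774 TPM in Nfkbiz KO. In TPM all Nfkbiz KO samples were above all Ctrl samples, but in CPM the groups overlapped, and the fitted log2 difference was 0.04 (SE 0.0587, adjusted p = 0.62). The TPM scale lay higher in Nfkbiz KO for most genes, with a median log2 ratio of mean TPM of 0.09 over all genes tested. An opposite-strand neighbour, Slc19a1, shares 12.7% of the exon bases of Col18a1. Col4a4 had 14 to 32 reads (adjusted p = 0.27).

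**Figure D3:**
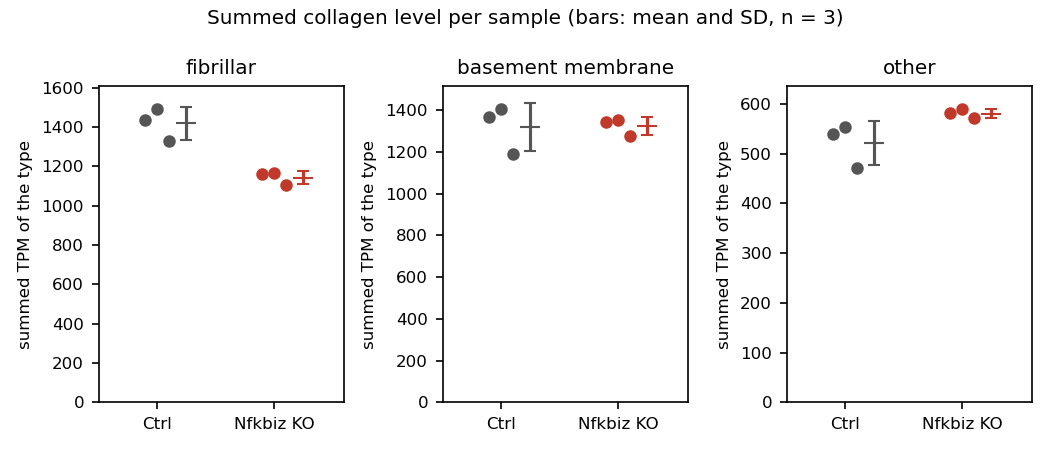
Summed TPM of the fibrillar, basement membrane and other collagen chain genes in each of the 3 Ctrl (grey) and 3 Nfkbiz KO (red) samples, with mean and SD (n = 3) as bars and axes starting at 0. The fibrillar sums do not overlap, at 1326 to 1489 in Ctrl and 1104 to 1164 in Nfkbiz KO, whereas the basement membrane sums do.

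The chains of other types were more varied. Of the 13 genes tested, 3 fell and 4 rose (over all genes tested 18.2% fell and 18.0% rose). The median log2 fold change of the 13 was 0.10. This group holds the anchoring, fibril-associated, beaded, short-chain and transmembrane collagens, which differed among themselves.

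Col7a1 (chromosome 9, 108782647 to 108813943, plus strand) encodes the chain of anchoring fibrils, which fasten the epidermal basement membrane to the dermis. It had 325, 412 and 445 reads in Ctrl and 53, 59 and 56 reads in Nfkbiz KO, or 2.72, 3.37 and 3.02 against 0.519, 0.428 and 0.346 TPM. No Nfkbiz KO sample came near a Ctrl sample. Col7a1 was 7.11-fold lower (log2 fold change -2.83, SE 0.138, adjusted p = 1.4e-08), the largest change of any tested chain gene, and stayed between -2.91 and -2.72 with each sample left out. Its level was low in both groups, so it contributed little to the summed collagen RNA.

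The fibril-associated collagens attach to the surface of fibrils. Col12a1 (chromosome 9, 79506268 to 79626135, minus strand), which links fibrils to the surrounding matrix, had 40.5, 43.9 and 28.9 TPM in Ctrl and 16.2, 15.5 and 15.2 TPM in Nfkbiz KO. Ctrl replicate 3 was the lowest of its group but still above all Nfkbiz KO samples. The mean went from 37.8 ± 7.86 to 15.6 ± 0.526 TPM (SD, n = 3), 2.57-fold lower by the fit (log2 fold change -1.36, SE 0.0989, adjusted p = 4.4e-07). Col16a1, another gene of this family, had 113, 115 and 107 TPM in Ctrl and 92.6, 94.6 and 89.2 TPM in Nfkbiz KO. These groups were separate (log2 fold change -0.38, SE 0.0507, adjusted p = 8.2e-05). Summed over the 9 fibril-associated genes the level was 154, 159 and 137 TPM in Ctrl and 110, 111 and 105 TPM in Nfkbiz KO, without overlap. Col9a3, Col14a1 and Col20a1, the other tested genes of this family, had at most 60 reads in a sample and adjusted p of 0.78, 0.07 and 0.99.

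Type VI collagen forms beaded filaments around cells. Its summed TPM was 274, 274 and 231 in Ctrl and 336, 333 and 323 in Nfkbiz KO, higher in every Nfkbiz KO sample. Of 4 tested genes of this kind 2 rose (over all genes tested 18.0% rose). Col6a3 (chromosome 1, 90693645 to 90771780, minus strand) had 130, 137 and 102 TPM in Ctrl and 176, 171 and 168 TPM in Nfkbiz KO. These groups did not overlap (log2 fold change 0.39, SE 0.0767, adjusted p = 0.0017). Its partners did not pass the test. Col6a1 had 121, 118 and 110 TPM in Ctrl and 137, 138 and 133 TPM in Nfkbiz KO (log2 fold change 0.12, SE 0.0518, adjusted p = 0.088, and 0.015 with limma on log2(TPM + 1)). Col6a2 had 22.1, 18.7 and 19.1 TPM in Ctrl and 22.6, 23.7 and 22.1 TPM in Nfkbiz KO (log2 fold change 0.09, adjusted p = 0.38). The ratio of Col6a1 to Col6a2 was 5.49, 6.31 and 5.79 in Ctrl and 6.07, 5.81 and 6 in Nfkbiz KO, with overlap (p = 0.7 by the same exact test).

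Col6a4, a further type VI chain, was scarcely expressed in Ctrl. It had 16, 23 and 19 reads in Ctrl and 27, 54 and 75 reads in Nfkbiz KO. In CPM the groups were separate, and the fitted log2 difference was 1.36 (SE 0.32, adjusted p = 0.0055), between 1.12 and 1.58 with each sample left out.

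**Figure D4:**
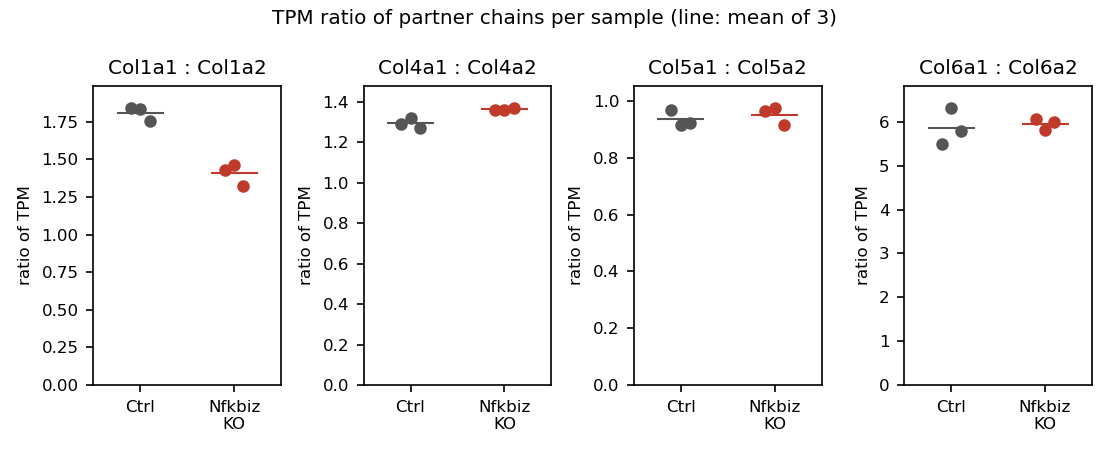
Ratio of the TPM of partner chains in each sample, for the 4 pairs in which both chains were tested, with grey points for Ctrl, red points for Nfkbiz KO and lines at the mean of 3. The ratio of Col1a1 to Col1a2 is 1.76 to 1.84 in Ctrl and 1.33 to 1.46 in Nfkbiz KO, while those of Col5a1 to Col5a2 and Col6a1 to Col6a2 overlap.

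Among the remaining types, Col8a1, a short-chain collagen of vessel walls, had 109, 117 and 99.4 TPM in Ctrl and 133, 142 and 141 TPM in Nfkbiz KO. The Nfkbiz KO samples were all higher (log2 fold change 0.24, SE 0.0555, adjusted p = 0.0045). Col23a1, a transmembrane collagen, had 38, 39 and 40 reads in Ctrl and 71, 85 and 109 reads in Nfkbiz KO. It rose 2.20-fold without overlap (log2 fold change 1.14, SE 0.202, adjusted p = 0.00084). Col17a1, the transmembrane collagen of hemidesmosomes, had 25 to 37 reads and no detectable difference at this depth (adjusted p = 0.82).

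The enzymes and partners of collagen were followed in 7 lists. Of their 61 genes 55 were tested and 32 were called, 20 lower and 12 higher, with a median log2 fold change of -0.15. These counts, and those of each list below, can be read against the 36.3% of all genes tested that were called (18.2% lower and 18.0% higher). With limma on log2(TPM + 1) the 7 lists gave 27 called genes, 14 lower and 13 higher. In that setting 29.7% of all genes were called, 9.1% lower. Leaving out any Nfkbiz KO sample gave 28 called genes in the lists (26.2% to 27% of all genes).

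Of 15 genes for hydroxylation and glycosylation of the chains, 6 fell and 1 rose (median -0.16). The largest fall was that of P4ha2, a catalytic subunit of prolyl 4-hydroxylase, which stabilises the collagen helix. P4ha2 had 52.9, 58.7 and 58.1 TPM in Ctrl and 23.2, 22.1 and 20.6 TPM in Nfkbiz KO, with a wide gap between the groups (log2 fold change -1.47, SE 0.0651, adjusted p = 6e-09). P4hb, the shared β subunit and the most abundant gene of the list, had 1034, 1064 and 1035 TPM in Ctrl and 983, 978 and 973 TPM in Nfkbiz KO (log2 fold change -0.19, adjusted p = 0.016). Leaving out any of the Nfkbiz KO samples took P4hb above the threshold (up to 0.085).

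Of 10 genes for folding and secretion, 1 fell and 2 rose (median -0.03), so 30% were called, against 36.3% of all genes tested. Of the 2 that rose, Sec23a did not pass with any Nfkbiz KO sample left out (adjusted p of 0.052 to 0.12). The one that fell was Creb3l1, a transcription factor of the secretory pathway known to drive collagen genes in bone, with 5.23, 6.15 and 5.96 TPM in Ctrl and 2.65, 2.04 and 2.34 TPM in Nfkbiz KO. Its groups were well apart (log2 fold change -1.44, SE 0.172, adjusted p = 3.6e-05). Serpinh1, the collagen chaperone HSP47, was the most abundant of the list, at 2236, 2084 and 1991 TPM in Ctrl and 2080, 2053 and 1943 TPM in Nfkbiz KO, and did not pass the test (adjusted p = 0.081).

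Of 6 tested genes for propeptide removal, 3 fell and 2 rose (median -0.25). Pcolce, an enhancer of C-propeptide cleavage and the most abundant, had 387, 379 and 386 TPM in Ctrl and 345, 340 and 335 TPM in Nfkbiz KO (log2 fold change -0.27, adjusted p = 0.0025). Its relative Pcolce2 went in the opposite direction, with 7.99, 7.79 and 7.31 TPM in Ctrl and 18, 18.6 and 18 TPM in Nfkbiz KO (log2 fold change 1.16, SE 0.0719, adjusted p = 1.1e-07).

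Of 5 genes for cross-linking, all lysyl oxidases, 2 fell and 1 rose (median -0.27), each by a fold change above 2. Lox had 27.8, 31.6 and 25.9 TPM in Ctrl and 5.7, 5.57 and 5.82 TPM in Nfkbiz KO. It was 5.29-fold lower, and its groups were far apart (log2 fold change -2.40, SE 0.0722, adjusted p = 3e-10). Loxl2 had 34.7, 39 and 34.7 TPM in Ctrl and 16.8, 16.2 and 15.8 TPM in Nfkbiz KO (log2 fold change -1.18, adjusted p = 1.3e-08), with 79.4% of its reads unique. Loxl3, the most abundant, rose from 62.5, 61.7 and 57 TPM to 141, 140 and 140 TPM (log2 fold change 1.11, SE 0.0503, adjusted p = 7.1e-09). The called lysyl oxidases thus moved in both directions, beyond the spread between samples. Loxl1 (adjusted p = 0.83) and Loxl4 (adjusted p = 0.075) did not pass the test.

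**Figure D5:**
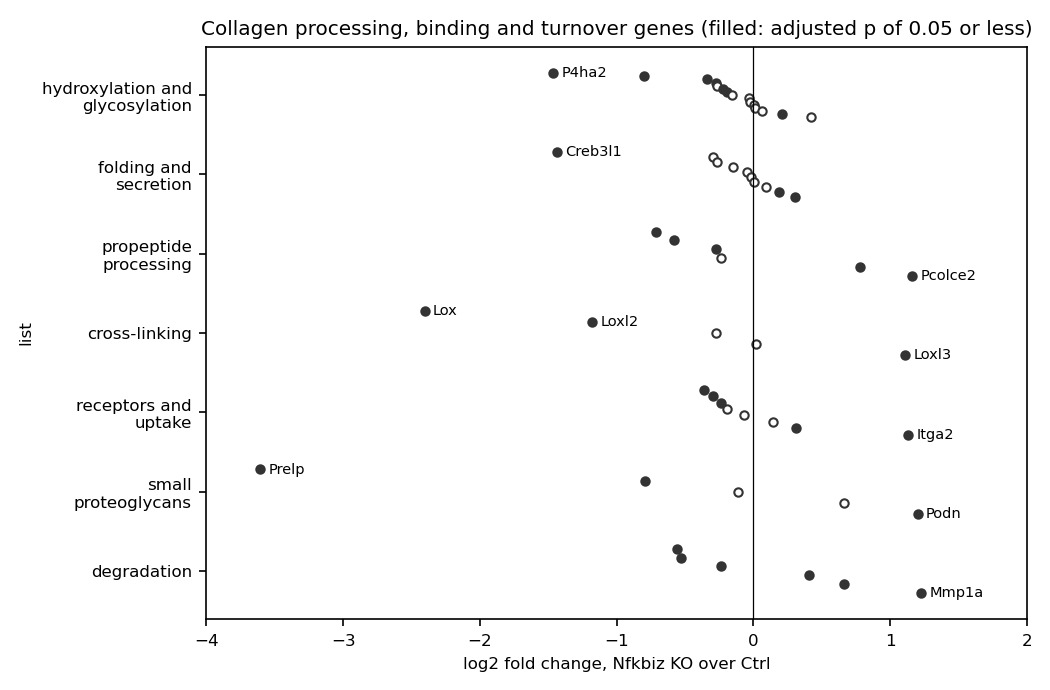
Log2 fold change (Nfkbiz KO over Ctrl) of the tested genes of 7 lists for collagen processing, binding and turnover, a point per gene, filled where called (adjusted p up to 0.05) and named where the fold change is also above 2. Lox, at -2.40, lies to the left and Loxl3, at 1.11, to the right within the cross-linking list, and the point of Prelp rests on 0, 3 and 3 reads in Nfkbiz KO.

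Of 8 genes for receptors and uptake, 3 fell and 2 rose (median -0.13), and with limma on TPM the 3 that fell, Ddr1, Itga1 and Mrc2, did not pass. Itga2, the collagen-binding integrin subunit α2, had 4.37, 5.85 and 4.67 TPM in Ctrl and 12, 11.4 and 11.7 TPM in Nfkbiz KO, all higher (log2 fold change 1.13, SE 0.0889, adjusted p = 8.5e-07). Its β partner Itgb1, the most abundant of the list, had 1042, 1180 and 1051 TPM in Ctrl and 1143, 1095 and 1108 TPM in Nfkbiz KO, with overlap (adjusted p = 0.42).

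Of 5 tested small proteoglycans, which bind fibrils, 2 fell and 1 rose (median -0.11). Bgn, the most abundant, had 1298, 1419 and 1350 TPM in Ctrl and 1312, 1371 and 1344 TPM in Nfkbiz KO, with overlap (adjusted p = 0.17). Prelp had 20, 35 and 20 reads in Ctrl and 0, 3 and 3 reads in Nfkbiz KO (adjusted p = 0.00049), and no fold is given at these counts. Podn had 19, 21 and 40 reads in Ctrl and 44, 48 and 98 reads in Nfkbiz KO (log2 fold change 1.20, adjusted p = 0.01, and 0.072 without Nfkbiz KO replicate 3).

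Of 6 tested genes for degradation, 3 rose and 3 fell (median 0.09), so every tested gene of the list was called, but with limma on TPM Mmp2 and Mmp13 did not pass (adjusted p of 0.12 and 0.06 on log2(TPM + 1)), which left 4. Mmp1a, an interstitial collagenase, had 23, 37 and 41 reads in Ctrl and 72, 80 and 88 reads in Nfkbiz KO (log2 fold change 1.23, SE 0.227, adjusted p = 0.0011). Its groups did not overlap. Mmp2, a gelatinase and the most abundant of the list, had 333, 325 and 302 TPM in Ctrl and 299, 300.4 and 273 TPM in Nfkbiz KO (log2 fold change -0.24, adjusted p = 0.0057), with 75.3% of its reads unique.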

How the data were processed

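RNA of 3 Ctrl and 3 Nfkbiz KO samples of D4M-3A cells was analysed, grouped by the genotype in the labels. Mapping was done by the authors in CLC Genomics Workbench, and a table per sample was deposited. Its total and uniquely mapped gene reads are raw counts as deposited. The deposited TPM values, and RPKM, were computed by the authors from exon reads, and their decimal commas were converted. RPKM served only to count genes with gene reads but an RPKM of 0, 2105 to 2271 in each sample. Total gene reads thus also hold reads that TPM leaves out. Reads were counted on both strands, so overlapping genes cannot be separated. The study's methods name GRCm39 and the submitters' processing notes GRCm38, and the tables hold no coordinates. Coordinates given here are from GENCODE on GRCm39, matched by symbol (44 of 44 chain genes, 37123 of 43043 in all), and upstream sequences from RefSeq on GRCm38.p6.

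Genes with at least 10 total gene reads in 3 or more samples (14533) were tested with edgeR 4.0.16 in R 4.3.3 (TMM, quasi-likelihood test, Benjamini-Hochberg adjustment over all genes tested). Unless another setting is named beside it, every adjusted p in the text comes from this test. A gene was called at 0.05 or less. "Rose" and "fell" are used of called genes. The standard error is the log2 fold change divided by the square root of F. On simulated counts for this comparison (14338 genes), 19 unchanged genes were called. Of genes changed by 1 on the log2 scale 105 of 107 were recovered, and of those changed by 2, 93 of 93. The changed genes were drawn from those with higher read totals, and each gene had the same spread in both groups. Smaller changes were not simulated, so these rates do not cover them or genes with few reads. Overlap was judged on log2 CPM, or on TPM where TPM are given. The limit of detection was 3 reads, which covers counting error only.

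The chain genes and lists were chosen with earlier results of these data known. Values per sample are given for each chain gene that was called or reached a mean of 10 TPM, and for list genes past a fold change of 2 or of highest TPM in their list. Alternatives were DESeq2 1.42.0, the likelihood-ratio test, RLE factors, other filters, limma 3.58.1 on log2(TPM + 1) and log2(TPM + 0.1), unique reads, a replicate block and each sample left out. Figures were drawn with matplotlib 3.10.9. LOX-IMVI cells were not analysed here.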

Additional observations from a re-analysis of the deposited data

How the results depend on the processing

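The 18 called chain genes (6 higher, 12 lower) were called again under DESeq2, RLE factors, both other filters, unique reads and the replicate block. Over all genes these settings called 5087 (replicate block) to 5638 (no filter on low counts), against 5269. The likelihood-ratio test added 1 higher gene, Col14a1, with 10 to 31 reads in a sample. Its mean TPM was 0.0200 in Ctrl and 0.0181 in Nfkbiz KO, with overlap, a difference the other way. On log2(TPM + 1) and on log2(TPM + 0.1) limma called 7 higher and 8 lower, 14 of the 18 among them. Col1a2 (adjusted p = 0.078 and 0.079), Col4a1 (0.16 and 0.17), Col4a2 (0.052 and 0.056) and Col5a1 (0.092 and 0.098) were lost and Col6a1 (0.015 and 0.016) was gained, on a scale where the median log2 difference of all genes was 0.06 and 0.08, against -0.02. Leaving out each sample in turn left 17 to 18 called (6 higher, 11 to 12 lower), with Col1a2 lost without Nfkbiz KO replicate 3. The count with a fold change above 2 and a difference above 4 TPM was 1 under all these settings. Whether same-numbered samples share more than a number is not given in the sources used here. Their deviations from the group means correlated at 0.0511, -0.02 and 0.0276. Across 21 named chain genes and all alternatives, 304 of 315 combinations kept direction and side of the threshold and 0 reversed.

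For the lists, receptors and uptake gave 2 called genes under both limma settings in place of 5, and 4 to 5 with each sample left out. Degradation gave 4 in place of 6 under both limma settings. Hydroxylation and glycosylation gave 4 to 8 in place of 7, the lowest without Nfkbiz KO replicate 1. Folding and secretion gave 2 to 4 in place of 3. The cause was not tested. The log2 ratio of Col6a1 to Col6a2 (0.03) ranged from -0.0204, without Ctrl replicate 1, to 0.0802. Ratios of total and unique reads in place of TPM, added after seeing the data, kept the direction of all 4 pairs. Depth limits chain genes with fewer than 10 reads in most samples, which were not tested.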

Other observations

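Genes outside the collagen family whose proteins carry a collagen-like domain were listed after some of their values were known (27 genes, 12 tested), so their counts are a description. In Nfkbiz KO 2 of them rose and 5 fell by the same test, in which 36.3% of all genes were called. Gldn, which encodes gliomedin, had 1.54, 1.23 and 0.715 TPM in Ctrl and 11.2, 11.4 and 10.4 TPM in Nfkbiz KO, with a log2 fold change of 3.09. No chain gene rose as far. C1qtnf1, a member of the C1q and tumor necrosis factor related family, had 13.8, 17.4 and 12.9 TPM in Ctrl and 5.79, 7.35 and 6.4 TPM in Nfkbiz KO, with a log2 fold change of -1.24 and 82.3% of its reads unique. Emilin1 and Emilin2, glycoproteins of elastic fibres, were lower as well (-0.46 and -0.59), and so were C1qtnf6 (-0.41) and the scavenger receptor gene Colec12 (-0.21), whose TPM groups overlapped. The adjusted p of Colec12 was 0.015, but 0.052 to 0.065 with any Nfkbiz KO sample left out and 0.38 with limma on log2(TPM + 1). Ccbe1, a secreted factor of lymphatic growth, was higher (0.50).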
